A study of Mus musculus with 21 samples.

Results

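Epidermal cells are held together by desmosomes, adherens junctions, tight junctions and gap junctions, and the genes described here build those 4 structures. They were taken by symbol: the desmogleins (Dsg), desmocollins (Dsc) and plakophilins (Pkp) with Dsp, Jup, Ppl and Evpl, the claudins (Cldn) with Ocln, F11r and the Tjp genes, the cadherins (Cdh) and the connexins (Gja to Gje). The rule found 87 of the 43776 gene symbols in the tables. They comprised 17 desmosome genes, 28 tight junction genes, of which 23 were claudins, 22 cadherin genes and 20 connexin genes.

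The study sequenced polyadenylated RNA of wild-type mouse keratinocytes in 21 libraries, in 7 groups of 3. These were sorted hair follicle stem cells (HFSCs), cultured HFSCs, total epidermal cells, 2 fractions sorted from 3C cultures, both positive for alpha-6 integrin and either CD34+ or CD34neg, and 3C cultures given dorsomorphin or cyclopamine for 48 h. For the last 12 libraries the labels describe 3C cultures as total epidermal cells grown for 10 to 14 days. Dorsomorphin blocks BMP receptors of type I (and AMP-activated kinase), cyclopamine blocks the Hedgehog transducer Smoothened, and neither was paired with an untreated culture in its table. CD34 and alpha-6 integrin are surface proteins by which stem cells of the hair follicle bulge are sorted. The stated questions were which cells grow in 3C cultures, and which early changes accompany the drug said to deplete HFSCs and the drug said to enrich them.

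The authors deposited 3 tables of their own comparisons, with 1 level per gene and population in FPKM (fragments normalised to transcript length and to library size). Each level pools the 3 libraries of a population, so no spread between libraries and no library depth is known, and a call below is the authors' test at an adjusted p under 0.05. One table compares populations named CD34a6, HFSC and bulk. Bulk is taken to be the total epidermal cells. The labels do not settle which of CD34a6 and HFSC is the freshly sorted group and which the cultured group, so the table's names are kept. The other tables compare CD34+ with CD34neg cells, and dorsomorphin with cyclopamine. The labels do not say whether libraries of 1 group are from different animals or cultures. Values are set side by side only within a table. In pooled RNA, fewer cells of a type and less RNA per cell cannot be told apart.

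Desmosomes join neighbouring cells through the paired cadherins desmoglein and desmocollin. Plakoglobin (Jup) and plakophilins bind the tails of these cadherins, and desmoplakin (Dsp) ties them to keratin filaments. In epidermis the desmosomal cadherins are layered: Dsg3 and Dsc3 are best known from the basal layers, Dsg1 and Dsc1 from the upper layers. Adherens junctions use the classical cadherins Cdh1 (E-cadherin) and Cdh3 (P-cadherin), tight junctions seal the granular layer with claudins and occludin, and connexins form the channels of gap junctions.

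Cd34, a sort gene, was highest in CD34a6 cells and not in the population named HFSC. It stood at 327 FPKM in CD34a6 cells and 8.70 FPKM in HFSC cells, against 10.6 FPKM in bulk cells, and at 38.7 FPKM in CD34+ cells against 2.26 FPKM in CD34neg cells. Itga6, which encodes alpha-6 integrin, stood at 155 FPKM in CD34a6 cells and 306 FPKM in HFSC cells, against 72.4 FPKM in bulk cells. Markers of other cells moved with these populations. The 5 immune markers summed to 5.29 FPKM in CD34a6 cells and 1.29 FPKM in HFSC cells, against 316 FPKM in bulk cells, where Cd74 and H2-Aa held most of the sum; Ptprc was listed at 0 in HFSC cells. All 5 were called lower in CD34a6 cells than in bulk cells. The 6 fibroblast markers summed to 31.0 FPKM in CD34a6 cells and 0.643 FPKM in HFSC cells, against 2.45 FPKM in bulk cells, with Col3a1 and Lum listed at 0 in CD34a6 and in HFSC cells. The part of immune and fibroblast RNA in the junction gene results was not tested. In the other 2 tables no immune, endothelial, melanocyte or nerve list exceeded 1.71 FPKM, and the fibroblast list reached 7.06 FPKM with dorsomorphin and 4.88 FPKM with cyclopamine. The summed FPKM of all loci was 406723 in CD34a6 cells and 482175 in HFSC cells, against 917078 in bulk cells. Setting these totals equal would raise every log2 fold by 1.17 for CD34a6 against bulk and by 0.93 for HFSC against bulk, and lower every log2 fold by 0.25 for HFSC against CD34a6, and this turned the direction of 1 called junction gene, Dsc3 in CD34a6 against bulk.

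Of the 87 genes, 44 were tested in at least 1 comparison and 28 in all 5. The other 43 were never tested, did not exceed 0.361 FPKM in any population, and included 13 listed at 0 in all 7. Desmosomes used nearly the whole family: 15 of the 17 genes reached 5 FPKM somewhere, and Dsg1c and Dsg4, the hair-shaft desmoglein, stayed under 1 FPKM. The other families were narrower. At 5 FPKM or more were 6 of 23 claudins, 4 of 22 cadherins and 6 of 20 connexins, while 16 claudins, 16 cadherins and 12 connexins stayed under 1 FPKM in every population.

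Read against the whole table, junction genes were on balance lower in CD34a6 and HFSC cells than in bulk cells. In CD34a6 against bulk cells, 5 of 44 tested junction genes were called higher and 26 lower, or 11.4% and 59.1%, while 22.0% and 24.3% of all tested loci were. In HFSC against bulk cells, 10 of 41 were called higher and 21 lower, or 24.4% and 51.2%, against 19.0% and 24.7% of all loci. Between the HFSC and CD34a6 cells the balance was the other way, with 20 of 42 called higher in HFSC cells and 13 lower, or 47.6% and 31.0%, against 25.2% and 29.0% of all loci. With a pseudocount of 1 FPKM, the median log2 fold was -0.90 for the junction genes and 0.00 for all loci in CD34a6 against bulk, -0.62 and -0.11 in HFSC against bulk, and 0.28 and -0.07 in HFSC against CD34a6. These 3 comparisons share populations, so they are not independent of each other.

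**Figure D1:**
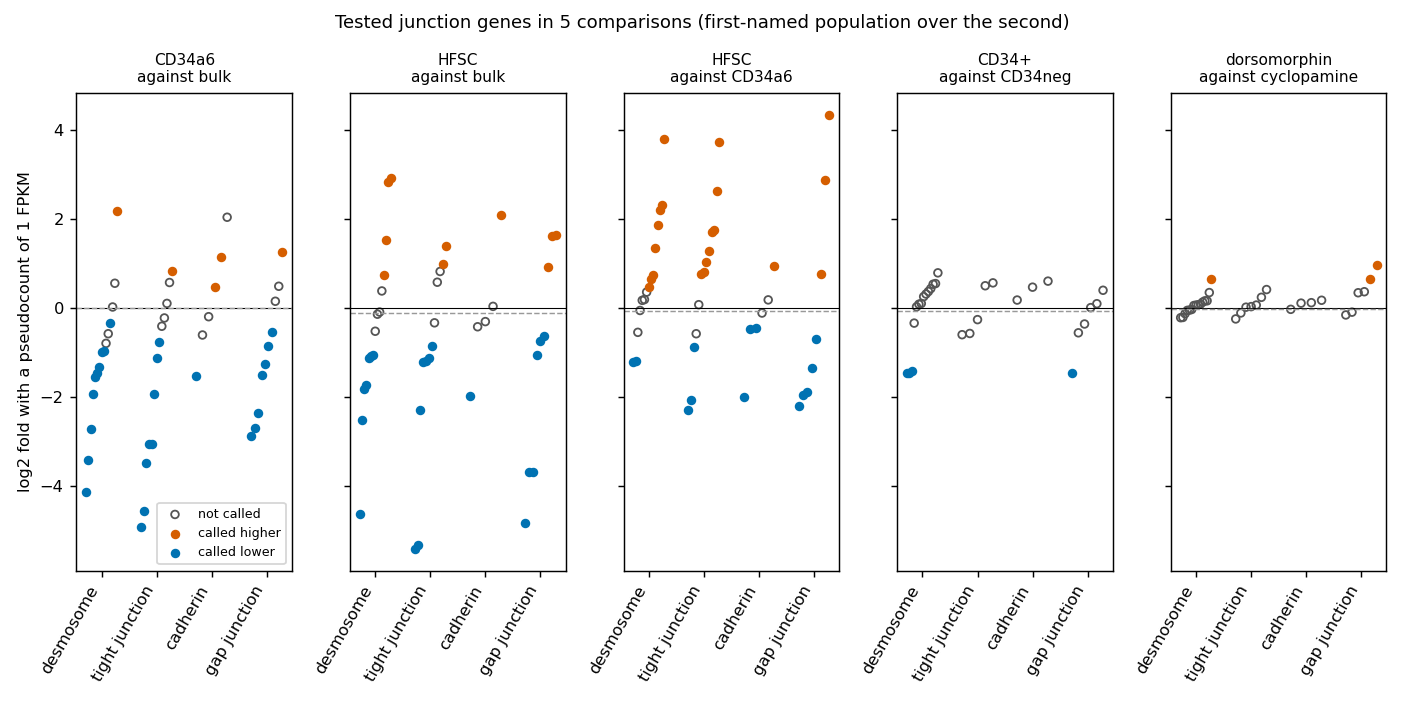
The log2 fold (pseudocount 1 FPKM) of each tested junction gene, by junction type, in the 5 comparisons; the first-named population is over the second, filled points are called by the authors' test, open points are not, and the dashed line is the median of all tested loci. Most filled points lie below 0 against bulk cells, while 4 points are filled for CD34+ against CD34neg and 3 for dorsomorphin against cyclopamine.

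The leading desmoglein differed between populations. Dsg1a had 36.2 FPKM in CD34a6 cells and 15.0 FPKM in HFSC cells, against 394 FPKM in bulk cells. Dsg3 ran the other way, with 130.3 FPKM in CD34a6 cells and 218 FPKM in HFSC cells, against 27.8 FPKM in bulk cells. Dsg1a was thus the highest desmoglein in bulk cells, with 79.1% of the desmoglein FPKM, and Dsg3 the highest in CD34a6 cells, with 69.9%, and in HFSC cells, with 74.5%. The authors' deposited table has Dsg1a 10.9-fold lower in CD34a6 and 26.3-fold lower in HFSC cells than in bulk cells, and Dsg3 4.69-fold and 7.85-fold higher, all with an adjusted p of 0.000212, the smallest in that table. HFSC cells also differed from CD34a6 cells, with Dsg1a 2.41-fold lower and Dsg3 1.68-fold higher in the authors' deposited table (adjusted p = 0.000212 for each).

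Dsg1b, the neighbouring copy of Dsg1a, did not follow it in HFSC cells. Its levels were 9.65 FPKM in CD34a6 cells and 48.0 FPKM in HFSC cells, against 69.3 FPKM in bulk cells. It was 7.18-fold lower in CD34a6 than in bulk cells in the authors' deposited table and 4.98-fold higher in HFSC than in CD34a6 cells (adjusted p = 0.000212 for each), while HFSC against bulk cells did not pass (adjusted p = 0.109). The transcripts of these copies are alike: 31.6% of the 50-base stretches of Dsg1a also occur in Dsg1b, and 45.5% of those of Dsg1b in Dsg1a, so how reads were divided between them is uncertain. Summed, Dsg1a and Dsg1b had 45.8 FPKM in CD34a6 cells and 63.0 FPKM in HFSC cells, against 463 FPKM in bulk cells. This sum was higher in HFSC than in CD34a6 cells, the reverse of Dsg1a alone. The Dsg1 genes jointly held 24.7% of the desmoglein FPKM in CD34a6 cells and 21.6% in HFSC cells, against 93.1% in bulk cells. Dsg2, the desmoglein of simple epithelia, was low in all 3 populations at 10.1 FPKM in CD34a6 and 11.5 FPKM in HFSC cells, against 6.52 FPKM in bulk cells; its locus in the table also covers Ttr.

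Among the desmocollins, Dsc1 of the upper epidermis had 9.30 FPKM in CD34a6 cells and 50.05 FPKM in HFSC cells, against 180.1 FPKM in bulk cells. It was 19.4-fold lower in CD34a6 and 3.60-fold lower in HFSC than in bulk cells, and 5.38-fold higher in HFSC than in CD34a6 cells, in the authors' deposited table (adjusted p = 0.000212 for each). Dsc2 peaked in the HFSC population, with 1.18 FPKM in CD34a6 cells and 29.4 FPKM in HFSC cells, against 3.23 FPKM in bulk cells. The authors' deposited table gives it as 24.9-fold higher in HFSC than in CD34a6 cells and 9.09-fold higher than in bulk cells (adjusted p = 0.000212 for both). Dsc3 led the family in every population, with 238 FPKM in CD34a6 cells and 229.6 FPKM in HFSC cells, against 475 FPKM in bulk cells. It was called 1.99-fold lower in CD34a6 and 2.07-fold lower in HFSC than in bulk cells in the authors' deposited table (adjusted p = 0.0301 and 0.0240). With the same FPKM total in each population, the first of these turned to a log2 fold of 0.18 and the second shrank to -0.12. Dsc1 nevertheless held 3.74% of the desmocollin FPKM in CD34a6 cells and 16.2% in HFSC cells, against 27.4% in bulk cells, a share that such scaling does not alter.

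All these cadherins lie in 1 cluster on mouse chromosome 18 (GRCm38), the desmocollins on the minus strand and the desmogleins on the plus strand. Dsc3 (18:19960930-20002097), Dsc2 (18:20030633-20059554) and Dsc1 (18:20084703-20114773) come first, followed by Dsg1c, Dsg1a (18:20310811-20343350), Dsg1b (18:20376729-20410196), Dsg4, Dsg3 (18:20510304-20541310) and Dsg2. In CD34a6 against bulk cells the called genes from Dsc3 to Dsg1b were all lower, and Dsg3, which is separated from Dsg1b only by Dsg4, was higher.

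Of the plaque proteins, Jup, Dsp, Pkp1 and Pkp3 were at 152 FPKM or more in all 3 populations. Plakoglobin (Jup) had 271 FPKM in CD34a6 cells and 379 FPKM in HFSC cells, against 795 FPKM in bulk cells, and it was called lower in both, 2.94-fold and 2.10-fold, in the authors' deposited table (adjusted p = 0.000932 and 0.0188). With the same FPKM total in each population, these Jup differences shrank to log2 folds of -0.38 and -0.14. Desmoplakin (Dsp) had 464 FPKM in CD34a6 cells and 732 FPKM in HFSC cells, against 804 FPKM in bulk cells. By the authors' deposited table it passed only between HFSC and CD34a6 cells, 1.58-fold higher in HFSC cells (adjusted p = 0.00976). Pkp1, the plakophilin of the upper epidermis, had 152 FPKM in CD34a6 cells and 392 FPKM in HFSC cells, against 417 FPKM in bulk cells. It was 2.74-fold lower in CD34a6 than in bulk cells, while the HFSC to bulk difference did not pass (adjusted p = 0.000761 and 0.686 in the authors' deposited table). Pkp3 had 394 FPKM in CD34a6 cells and 269.8 FPKM in HFSC cells, against 587 FPKM in bulk cells, and was the leading plakophilin in CD34a6 cells with 70.3% of the family and in bulk cells with 57.7%, while Pkp1 led in HFSC cells with 57.4%.

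Pkp2, the plakophilin best known from heart and simple epithelia, was scarce but changed like Dsc2. It had 0.142 FPKM in CD34a6 cells and 3.14 FPKM in HFSC cells, against 0.435 FPKM in bulk cells, a 22.1-fold difference between HFSC and CD34a6 cells in the authors' deposited table (adjusted p = 0.000212). Pkp4 had 14.1 FPKM in CD34a6 and 18.4 FPKM in HFSC cells, against 13.9 FPKM in bulk cells, and was called in no comparison. The plakins that join the cornified envelope were highest in bulk cells. Evpl (envoplakin) had 54.7 FPKM in CD34a6 cells and 23.5 FPKM in HFSC cells, against 138 FPKM in bulk cells. Ppl (periplakin) had 46.0 FPKM in CD34a6 cells and 52.7 FPKM in HFSC cells, against 177 FPKM in bulk cells. Both were called lower in each population, Evpl 2.53-fold and 5.88-fold and Ppl 3.85-fold and 3.36-fold, in the authors' deposited table (adjusted p at most 0.00126).

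Counted together, 1 of 15 tested desmosome genes was called higher in CD34a6 than in bulk cells and 10 lower. That was 6.67% and 66.7%, against 22.0% and 24.3% of all tested loci. Against bulk cells, HFSC cells had 4 called higher and 7 lower, or 26.7% and 46.7%, against 19.0% and 24.7% of all loci. Between HFSC and CD34a6 cells, 8 were higher and 2 lower in HFSC cells, or 53.3% and 13.3%, against 25.2% and 29.0%. The higher ones were Dsg1b, Dsg3, Dsc1, Dsc2, Pkp1, Pkp2, Jup and Dsp, and the lower ones Dsg1a and Evpl. The summed FPKM of the desmosome genes was 1830 in CD34a6 cells and 2472 in HFSC cells, against 4089 in bulk cells. As a share of the FPKM of all loci it was 0.450% in CD34a6 cells and 0.513% in HFSC cells, against 0.446% in bulk cells, so the lower sums were not seen relative to the total. Immune markers, as given above, were also lower in both comparisons with bulk cells, and their part in the desmosome counts was not tested.

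**Figure D2:**
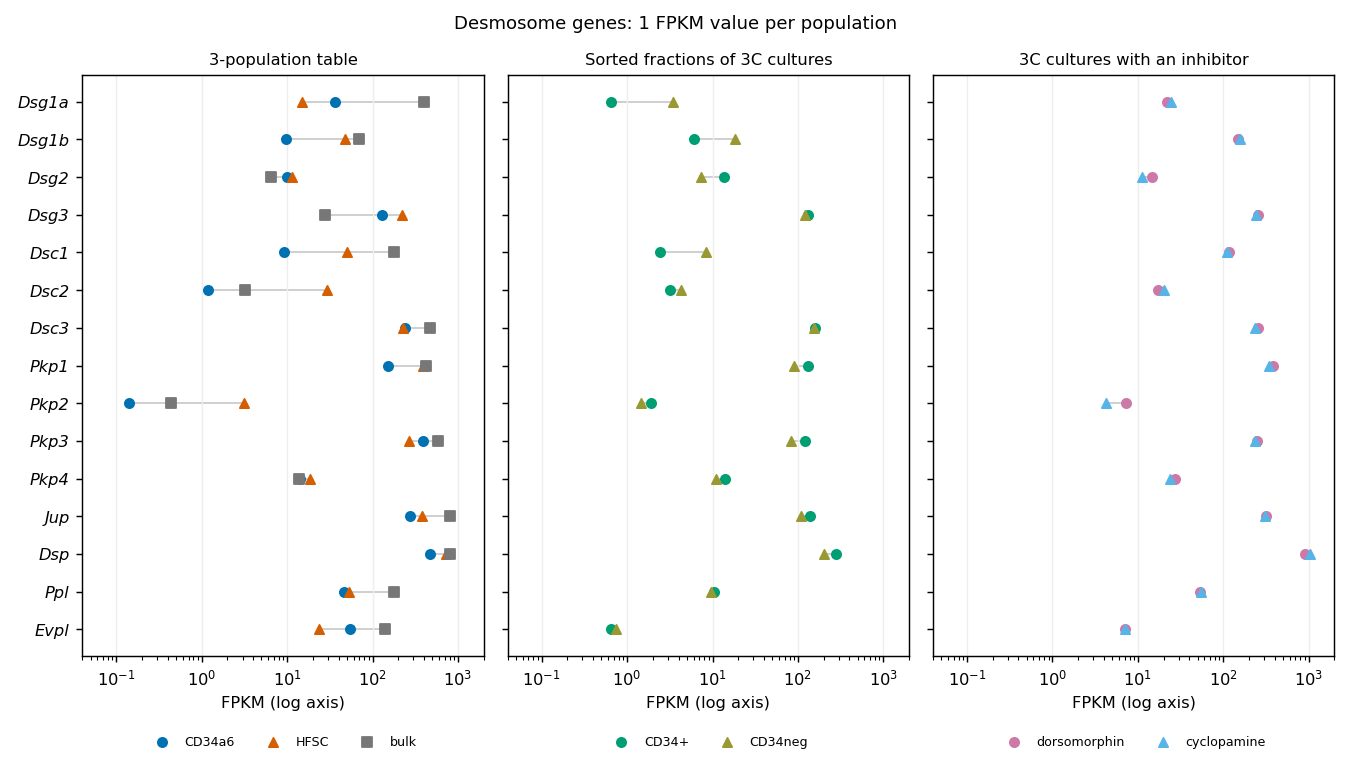
FPKM on a log axis of 15 desmosome genes in each population, 1 panel per table and 1 point per population, with values under 0.05 FPKM drawn at 0.05. In the first panel Dsg1a and Dsc1 are highest in bulk cells (394 and 180.1 FPKM) and Dsg3 is lowest there (27.8 FPKM), whereas Dsc2 and Pkp2 are highest in HFSC cells (29.4 and 3.14 FPKM).

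Genes that work with desmosomes, from a list of 6 measured genes, were more often lower than higher against bulk cells. Of the 6, 5 were called lower in CD34a6 than in bulk cells and none higher, where 24.3% and 22.0% of all tested loci were. In HFSC against bulk cells 3 were lower and 1 higher, where 24.7% and 19.0% of all loci were. Corneodesmosin (Cdsn), which strengthens the desmosomes of the cornified layer, had 14.5 FPKM in CD34a6 cells and 213 FPKM in HFSC cells, against 538 FPKM in bulk cells. Krt10, a keratin of differentiated layers, had 874 FPKM in CD34a6 cells and 41.5 FPKM in HFSC cells, against 25128 FPKM in bulk cells. HFSC cells thus stood above CD34a6 cells for Cdsn, as for Dsc1, and below them for Krt10. Dsg1a alone was likewise lower in HFSC cells, but its sum with Dsg1b was not. Per the authors' deposited table, Cdsn was 14.7-fold higher and Krt10 21.1-fold lower in HFSC than in CD34a6 cells (adjusted p = 0.000212 for each).

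Tight junction genes were more often lower than higher in CD34a6 and HFSC cells against bulk cells. Of 13 tested, CD34a6 cells had 1 called higher than bulk cells and 8 lower, where 22.0% and 24.3% of all tested loci were. In HFSC against bulk cells 2 of 12 were higher and 7 lower, where 19.0% and 24.7% of all loci were. In HFSC against CD34a6 cells 8 of 13 were higher and 3 lower, where 25.2% and 29.0% of all loci were. Tight junction genes held 0.0513% of the FPKM of all loci in CD34a6 cells and 0.0791% in HFSC cells, against 0.0788% in bulk cells. Relative to the total, their sum was thus below that of bulk cells in CD34a6 cells but not in HFSC cells. Cldn1 or Cldn4 was the most abundant claudin in each population.

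Cldn4 had 5.41 FPKM in CD34a6 cells and 84.3 FPKM in HFSC cells, against 192 FPKM in bulk cells. Cldn1, whose loss in mice abolishes the epidermal water barrier, had 40.2 FPKM in CD34a6 cells and 71.5 FPKM in HFSC cells, against 156 FPKM in bulk cells. The leading claudin accordingly was Cldn1 in CD34a6 cells with 65.2% of claudin FPKM, and Cldn4 in HFSC cells with 45.6% and in bulk cells with 42.9%. Relative to bulk cells, the authors' deposited table has Cldn4 35.5-fold and Cldn1 3.88-fold lower in CD34a6 cells (adjusted p = 0.000212 for each), and 2.28-fold and 2.18-fold lower in HFSC than in bulk cells (adjusted p = 0.00174 for each). With the same FPKM total in each population, the HFSC against bulk log2 folds were -0.26 for Cldn4 and -0.20 for Cldn1. HFSC cells stood above CD34a6 cells for both, 15.6-fold for Cldn4 and 1.78-fold for Cldn1 in the authors' deposited table (adjusted p = 0.000212 for each).

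Cldn3, which lies beside Cldn4 on chromosome 5, had 0.420 FPKM in CD34a6 cells and 7.77 FPKM in HFSC cells, against 14.9 FPKM in bulk cells, the same order as Cldn4. Cldn23 was a bulk gene, with 2.26 FPKM in CD34a6 cells and 0.790 FPKM in HFSC cells, against 75.4 FPKM in bulk cells. The authors' deposited table puts it 33.4-fold lower in CD34a6 and 95.5-fold lower in HFSC than in bulk cells (adjusted p = 0.000212 for each). Other claudins had other maxima. Cldn12 had 6.34 FPKM in CD34a6 cells and 16.8 FPKM in HFSC cells, against 5.82 FPKM in bulk cells, and Cldn7 had 0.141, 2.85 and 0.936 FPKM in CD34a6, HFSC and bulk cells. Cldn8 was the only tight junction gene called higher in CD34a6 than in bulk cells, with 5.94 FPKM in CD34a6 cells and 0.666 FPKM in HFSC cells, against 2.87 FPKM in bulk cells (2.07-fold, adjusted p = 0.0102 in the authors' deposited table).

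Occludin (Ocln), the other strand protein of tight junctions, had 3.15 FPKM in CD34a6 cells and 6.08 FPKM in HFSC cells, against 33.5 FPKM in bulk cells. It was 10.6-fold and 5.51-fold lower than in bulk cells in the authors' deposited table (adjusted p = 0.000212 for each). F11r, the adhesion molecule JAM-A, differed little, with 111 FPKM in CD34a6 and 118 FPKM in HFSC cells, against 148 FPKM in bulk cells, and passed in no comparison. Tjp1 and Tjp3 encode zonula occludens scaffolds, which anchor claudins to actin, and had different orders. Tjp1 had 16.8 FPKM in CD34a6 cells and 35.8 FPKM in HFSC cells, against 19.8 FPKM in bulk cells. Tjp3 had 5.001 FPKM in CD34a6 cells and 0.228 FPKM in HFSC cells, against 48.5 FPKM in bulk cells, so bulk cells stood highest for it and HFSC cells for Tjp1. HFSC cells were, in the authors' deposited table, called above CD34a6 cells for Tjp1 (2.13-fold, adjusted p = 0.00349) and below them for Tjp3 (21.9-fold, adjusted p = 0.00249).

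Of 15 tested partners of tight junctions (17 were listed), CD34a6 cells had 6 called higher than bulk cells and 6 lower. Of all tested loci, 22.0% were higher and 24.3% lower. The partners thus did not lean one way as the claudins did. Cingulin (Cgn), an adaptor between tight junctions and the cytoskeleton, had 5.17 FPKM in CD34a6 cells and 7.58 FPKM in HFSC cells, against 45.3 FPKM in bulk cells. Its relative Cgnl1 had 16.0 FPKM in CD34a6 cells and 2.49 FPKM in HFSC cells, against 1.07 FPKM in bulk cells. Of the proteins of corners where 3 cells meet, Lsr (angulin) had 28.6 FPKM in CD34a6 cells and 48.5 FPKM in HFSC cells, against 215 FPKM in bulk cells, and its relative Ildr1 had 5.09, 2.14 and 1.03 FPKM in CD34a6, HFSC and bulk cells. The authors' deposited table gives Cgnl1 as 14.9-fold and Ildr1 4.93-fold higher in CD34a6 than in bulk cells, and Cgn as 8.77-fold and Lsr 7.53-fold lower (adjusted p = 0.000212 for each). Each family thus held members with opposite directions.

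E-cadherin (Cdh1) was the most abundant classical cadherin in all populations and was called in none of the 5 comparisons. It had 128 FPKM in CD34a6 cells and 146 FPKM in HFSC cells, against 196 FPKM in bulk cells (adjusted p = 0.0828 and 0.184 against bulk in the authors' deposited table). P-cadherin (Cdh3), the classical cadherin of basal and hair follicle cells, had 44.0 FPKM in CD34a6 cells and 85.4 FPKM in HFSC cells, against 19.4 FPKM in bulk cells. By the authors' deposited table it was 2.27-fold higher in CD34a6 and 4.41-fold higher in HFSC than in bulk cells, and 1.94-fold higher in HFSC than in CD34a6 cells (adjusted p at most 0.000586). The ratio of Cdh1 to Cdh3 FPKM was 2.92 in CD34a6 cells and 1.71 in HFSC cells, against 10.1 in bulk cells. The 2 genes are neighbours on chromosome 8, Cdh3 at 8:106510913-106556908 and Cdh1 at 8:106603351-106670246 (GRCm38), both on the plus strand.

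Other cadherins were few. Cdh13 (T-cadherin), which is anchored in the membrane by a lipid and lacks a cytoplasmic tail, had 17.4 FPKM in CD34a6 cells and 16.0 FPKM in HFSC cells, against 20.0 FPKM in bulk cells, and passed in no comparison. Cdh4 (R-cadherin) had 0.426 FPKM in CD34a6 cells and 0.0530 FPKM in HFSC cells, against 3.12 FPKM in bulk cells. Cdh11, a cadherin of mesenchymal cells, had 0.506 FPKM in CD34a6 cells and 0.0822 FPKM in HFSC cells, against 0.0922 FPKM in bulk cells. Cdh11 is itself 1 of the 6 fibroblast markers, whose sum was likewise highest in CD34a6 cells. Cdh24 was listed at 5.78 FPKM in CD34a6 cells and 0.691 FPKM in HFSC cells, against 0.645 FPKM in bulk cells, but its locus also covers Acin1 and the value cannot be assigned to 1 gene. Cdh5, the cadherin of blood vessels, was under 1 FPKM in every population.

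Of 11 measured adherens junction partners, CD34a6 cells had 4 called higher than bulk cells and 4 lower, and HFSC cells likewise. Of all tested loci, 22.0% were higher and 24.3% lower in CD34a6 cells, and 19.0% and 24.7% in HFSC cells. Nectins, which adhere beside the cadherins, were among the lower ones: Pvrl3 had 3.43 FPKM in CD34a6 cells and 0.973 FPKM in HFSC cells, against 71.4 FPKM in bulk cells, and Pvrl2 had 8.48 FPKM in CD34a6 and 19.6 FPKM in HFSC cells, against 46.4 FPKM in bulk cells. Actin-linked adaptors were among the higher ones: Lima1 had 45.3 FPKM in CD34a6 cells and 108 FPKM in HFSC cells, against 20.2 FPKM in bulk cells, and Ajuba had 58.3 FPKM in CD34a6 and 89.7 FPKM in HFSC cells, against 27.4 FPKM in bulk cells. Of 6 transcriptional repressors of E-cadherin only Snai2 (Slug) was tested. It had 21.3 FPKM in CD34a6 cells and 61.0 FPKM in HFSC cells, against 4.18 FPKM in bulk cells, 5.09-fold and 14.6-fold higher than in bulk cells in the authors' deposited table (adjusted p = 0.000212 for each), while Cdh1 itself was not called.

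**Figure D3:**
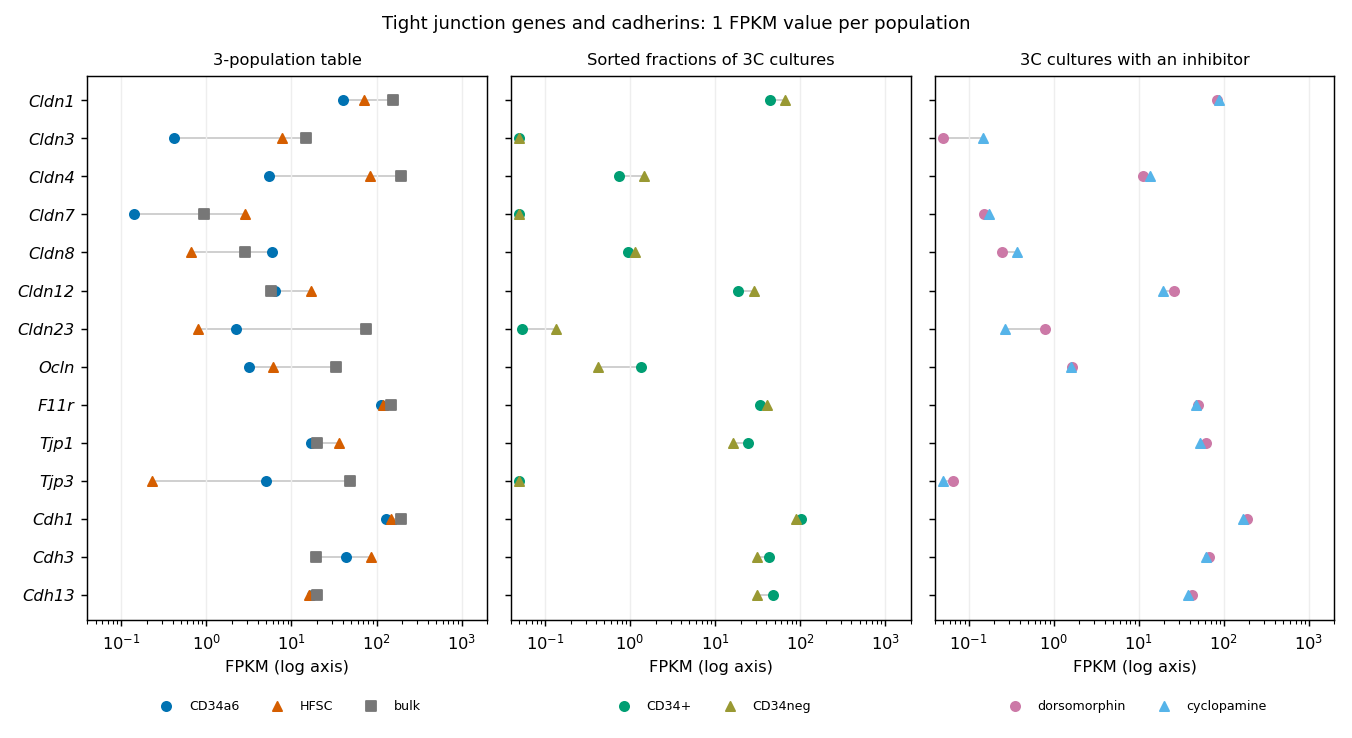
FPKM on a log axis of 11 tight junction genes and 3 cadherins in each population, 1 panel per table and 1 point per population, with values under 0.05 FPKM drawn at 0.05. In the first panel Cldn4, Cldn23, Ocln and Tjp3 are lowest in CD34a6 or HFSC cells and highest in bulk cells, Cldn12 and Cdh3 are highest in HFSC cells, and the Cdh1, Cdh13 and F11r points lie close together.

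Connexins differed in which gene led as well as in level. Their names give the protein size: Gja1 is Cx43, the most widespread connexin, Gjb2 is Cx26 and Gjb6 is Cx30, mutated in deafness and skin disease, and Gjb5 (Cx31.1) is a connexin of the epidermis. Gjb2 (14:57098600-57104702) and Gjb6 (14:57123303-57133611) are neighbours on the minus strand of chromosome 14, and Gjb5 (4:127354809-127358181) lies on the minus strand of chromosome 4 (GRCm38).

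The promoters of 4 connexins and of Cldn4 are printed because the neighbours Gjb2 and Gjb6 had the same order of populations, while Gja1, Gjb5 and Cldn4 had others. Each window runs from 250 bases before to 50 bases after the start site, from RefSeq on GRCm38.p6, written 5′ to 3′ along the gene. It lies at chr14:57104653-57104952 for Gjb2 (minus strand), chr14:57133562-57133861 for Gjb6 (minus strand), chr10:56377050-56377349 for Gja1 (plus strand), chr4:127358115-127358414 for Gjb5 (minus strand) and chr5:134946885-134947184 for Cldn4 (minus strand). Capitals mark 4 motifs searched on both strands: the AP-1 site TGANTCA, the E-box CACCTG that Snail-family repressors bind, the Grainyhead site AACNGGTT and the GC box GGGCGG.
Gjb2: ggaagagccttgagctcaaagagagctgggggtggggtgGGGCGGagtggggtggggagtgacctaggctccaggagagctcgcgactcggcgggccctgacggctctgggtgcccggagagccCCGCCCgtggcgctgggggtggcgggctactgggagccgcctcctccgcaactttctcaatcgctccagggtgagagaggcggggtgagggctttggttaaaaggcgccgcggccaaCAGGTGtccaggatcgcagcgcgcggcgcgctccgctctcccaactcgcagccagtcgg
Gjb6: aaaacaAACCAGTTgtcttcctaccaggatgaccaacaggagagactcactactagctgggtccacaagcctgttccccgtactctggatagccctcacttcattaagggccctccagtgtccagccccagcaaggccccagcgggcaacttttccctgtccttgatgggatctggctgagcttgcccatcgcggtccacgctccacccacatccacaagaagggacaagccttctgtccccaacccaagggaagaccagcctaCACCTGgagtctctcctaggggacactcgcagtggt
Gja1: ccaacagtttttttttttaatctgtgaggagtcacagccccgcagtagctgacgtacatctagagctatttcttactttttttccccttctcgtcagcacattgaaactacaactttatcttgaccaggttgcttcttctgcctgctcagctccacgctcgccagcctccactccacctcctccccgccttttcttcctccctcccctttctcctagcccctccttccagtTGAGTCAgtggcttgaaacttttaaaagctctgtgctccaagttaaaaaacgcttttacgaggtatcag
Gjb5: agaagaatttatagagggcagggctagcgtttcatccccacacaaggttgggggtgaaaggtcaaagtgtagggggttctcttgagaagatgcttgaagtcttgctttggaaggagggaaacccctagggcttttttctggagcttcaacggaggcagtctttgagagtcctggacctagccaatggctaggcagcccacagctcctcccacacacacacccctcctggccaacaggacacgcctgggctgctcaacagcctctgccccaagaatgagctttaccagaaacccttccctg
Cldn4: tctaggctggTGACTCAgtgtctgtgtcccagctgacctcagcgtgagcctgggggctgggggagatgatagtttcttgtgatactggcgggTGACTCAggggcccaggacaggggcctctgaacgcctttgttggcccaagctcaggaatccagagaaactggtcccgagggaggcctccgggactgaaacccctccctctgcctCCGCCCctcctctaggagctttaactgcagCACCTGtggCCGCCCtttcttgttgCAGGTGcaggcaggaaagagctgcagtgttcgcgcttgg

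The Gjb2 window holds an E-box 9 bases before the start site and GC boxes 211 and 126 bases before it. The Gjb6 window holds a Grainyhead match 244 bases before the start site and an E-box 14 bases after it. Gja1 has an AP-1 match 19 bases before its start site, Gjb5 has none of the 4 motifs, and Cldn4 has AP-1 matches 240 and 158 bases, E-boxes 14 bases before and 11 bases after, and GC boxes 44 and 5 bases before its start site. Over all 32851 promoter windows of that length, 7.81% hold an AP-1 match, 20.2% the E-box, 2.09% a Grainyhead match and 35.7% a GC box. Of the 68 windows of the 51 junction genes that had one, 4 hold AP-1, 20 the E-box, 2 Grainyhead and 31 a GC box. A match describes letters and shows no binding.

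Gjb5 was highest in bulk cells and lowest in HFSC cells. It had 40.6 FPKM in CD34a6 cells and 9.69 FPKM in HFSC cells, against 304 FPKM in bulk cells. In the authors' deposited table it was 7.48-fold lower in CD34a6 and 31.4-fold lower in HFSC than in bulk cells, and 4.19-fold lower in HFSC than in CD34a6 cells (adjusted p = 0.000212 throughout).

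The chromosome 14 pair had another order, with HFSC cells highest and CD34a6 cells lowest. Gjb2 had 1.21 FPKM in CD34a6 cells and 43.8 FPKM in HFSC cells, against 13.3 FPKM in bulk cells. Gjb6 had 0.774 FPKM in CD34a6 cells and 12.1 FPKM in HFSC cells, against 3.24 FPKM in bulk cells. In the authors' deposited table Gjb2 was 36.1-fold and Gjb6 15.7-fold higher in HFSC than in CD34a6 cells, and 3.29-fold and 3.74-fold higher in HFSC than in bulk cells, while in CD34a6 cells they were 10.98-fold and 4.18-fold lower than in bulk cells (adjusted p = 0.000212 throughout). Gja1 was the steadier connexin, with 113 FPKM in CD34a6 cells and 194 FPKM in HFSC cells, against 101 FPKM in bulk cells. It was 1.92-fold higher in HFSC than in bulk cells and 1.72-fold higher than in CD34a6 cells in the authors' deposited table (adjusted p = 0.00963 and 0.000212).

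These levels changed which connexin dominated. Gja1 held 37.5% of connexin FPKM in CD34a6 cells and 65.0% in HFSC cells, against 10.7% in bulk cells. Gjb5 held 13.5% in CD34a6 cells and 3.25% in HFSC cells, against 32.2% in bulk cells, where it led. Gjb2 with Gjb6 held 0.661% in CD34a6 cells and 18.7% in HFSC cells, against 1.75% in bulk cells. The connexin sum itself was about as high in both populations, 301 FPKM in CD34a6 cells and 298 FPKM in HFSC cells, against 945 FPKM in bulk cells, or 0.0739% and 0.0618% of the FPKM of all loci, against 0.103%. Of the tested connexins, 1 of 10 was called higher and 7 lower for CD34a6 against bulk, where 22.0% and 24.3% of all tested loci were. For HFSC against bulk, 3 of 9 were higher and 6 lower, where 19.0% and 24.7% of all loci were. For HFSC against CD34a6, 3 of 8 were higher and 5 lower, where 25.2% and 29.0% of all loci were.

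Minor connexins were at low levels. Gja4 (Cx37), a connexin of blood vessels, had 3.03 FPKM in CD34a6 cells and 0.0838 FPKM in HFSC cells, against 0.669 FPKM in bulk cells. It was the only connexin called higher in CD34a6 than in bulk cells (4.52-fold, adjusted p = 0.000932 in the authors' deposited table). The 6 endothelial markers summed to 1.64 FPKM in CD34a6 cells and 1.05 FPKM in HFSC cells, against 0.236 FPKM in bulk cells, with Cdh5, Cldn5 and Emcn listed at 0 in HFSC cells and Cldn5 and Emcn at 0 in bulk cells. Their part in the Gja4 difference was not tested. Gjc1 had 0.813 FPKM in CD34a6 cells and 0.113 FPKM in HFSC cells, against 0.290 FPKM in bulk cells. Gjd3 was listed at 0 in HFSC cells, against 1.08 FPKM in bulk cells.

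**Figure D4:**
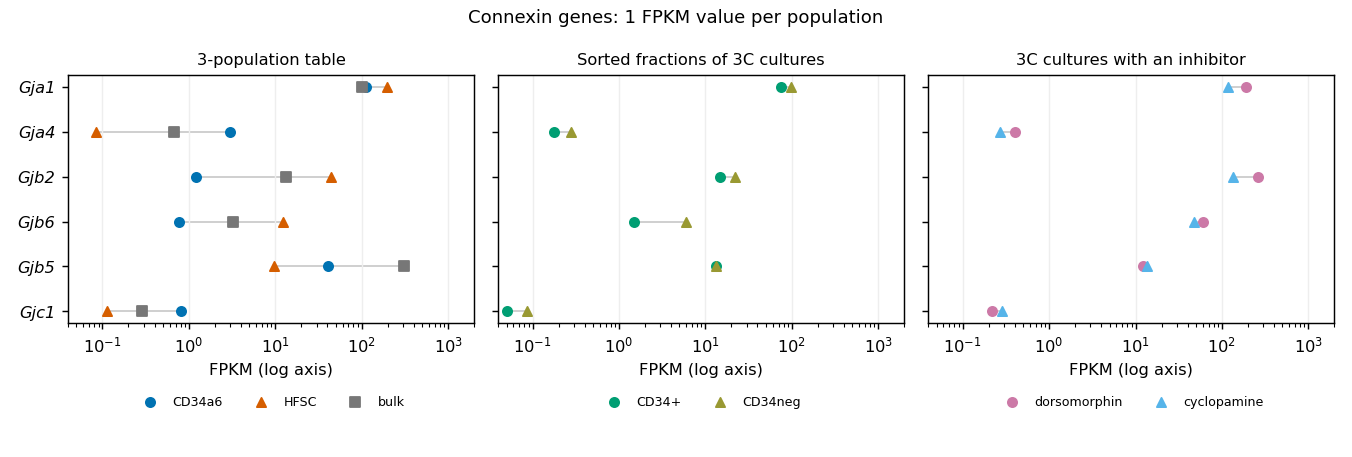
FPKM on a log axis of 6 connexin genes in each population, 1 panel per table and 1 point per population, with values under 0.05 FPKM drawn at 0.05. In the first panel Gjb5 runs from HFSC (lowest) to bulk cells (highest), Gjb2 and Gjb6 from CD34a6 (lowest) to HFSC cells (highest), and in the third panel Gjb2 stands at 264 FPKM with dorsomorphin and 134 FPKM with cyclopamine.

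Within 3C cultures, the CD34+ fraction carried less of the upper-layer desmosomal cadherins than the CD34neg fraction, and 1 connexin gene was lower as well. Of 28 tested junction genes, 0 were called higher and 4 lower in CD34+ cells, 14.3% lower, where 2.08% of all tested loci were higher and 4.71% lower. At an unadjusted p under 0.05 the authors' deposited table has 5 higher and 7 lower. The 4 were Dsg1a, Dsg1b, Dsc1 and Gjb6. Dsg1a and Dsg1b are the alike copies described above, so their calls may not be independent. Summed, these copies had 6.79 FPKM in CD34+ cells and 21.9 FPKM in CD34neg cells.

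Dsg1a had 0.655 FPKM in CD34+ cells and 3.43 FPKM in CD34neg cells. Dsg1b had 6.13 FPKM in CD34+ cells and 18.5 FPKM in CD34neg cells. Dsc1 had 2.42 FPKM in CD34+ cells and 8.44 FPKM in CD34neg cells. These are the desmosomal cadherins best known from the upper epidermis, and all 3 were at modest levels. By the authors' deposited table they were 5.23-fold, 3.02-fold and 3.48-fold lower in CD34+ cells (adjusted p = 0.00275 for each, the smallest in that table).

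The basal cadherins did not differ in that way, with Dsg3 at 131 FPKM in CD34+ cells and 122 FPKM in CD34neg cells, and Dsc3 at 158 FPKM in CD34+ and 155 FPKM in CD34neg cells (adjusted p = 0.752 and 0.940 in the authors' deposited table). Dsg3 held 86.5% of the desmoglein FPKM in CD34+ cells and 80.5% in CD34neg cells, and the Dsg1 genes held 4.51% and 14.5%. Dsg2 had 13.6 FPKM in CD34+ cells and 7.42 FPKM in CD34neg cells, a difference that did not pass (adjusted p = 0.0624 in the authors' deposited table). Among the partners, 0 of 5 tested were higher and 2 were lower, where 2.08% and 4.71% of all tested loci were. Cdsn had 2.38 FPKM in CD34+ cells and 7.80 FPKM in CD34neg cells, and Krt1 had 0.409 FPKM in CD34+ and 2.83 FPKM in CD34neg cells.

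Gjb6 had 1.499 FPKM in CD34+ cells and 5.88 FPKM in CD34neg cells, 3.92-fold lower in the authors' deposited table (adjusted p = 0.00275). Its neighbour Gjb2 had 14.6 FPKM in CD34+ and 21.9 FPKM in CD34neg cells and did not pass (adjusted p = 0.139 in the authors' deposited table). Gja1 led both fractions with 75.3 FPKM in CD34+ cells and 96.7 FPKM in CD34neg cells, 61.9% and 63.4% of connexin FPKM. No tested tight junction gene (0 of 5) or cadherin (0 of 3) was called in either direction. Only 2.08% of all tested loci were called higher and 4.71% lower, so 0 calls among so few genes show no contrast. Cldn1 had 44.5 FPKM in CD34+ cells and 66.5 FPKM in CD34neg cells, Cdh1 had 101 FPKM in CD34+ and 89.3 FPKM in CD34neg cells, and Cdh3 had 43.6 FPKM in CD34+ and 31.2 FPKM in CD34neg cells. Cldn4 was low in both, at 0.742 FPKM in CD34+ cells and 1.47 FPKM in CD34neg cells, and was not tested; Cldn3 and Cldn7 were listed at 0 in both.

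Between the inhibitors few junction genes differed, and those that did were higher with dorsomorphin. Of 32 tested, 3 were called higher with dorsomorphin than with cyclopamine and 0 lower, or 9.38% higher, where 1.26% of all tested loci were higher and 1.31% lower. At an unadjusted p under 0.05 the authors' deposited table has 7 higher and 0 lower. The 3 were the connexins Gjb2 and Gja1 and the plakophilin Pkp2.

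Gjb2 had 264 FPKM with dorsomorphin and 134 FPKM with cyclopamine, and was the most abundant connexin in both cultures. Gja1 had 188 FPKM with dorsomorphin and 118 FPKM with cyclopamine. In the authors' deposited table Gjb2 was 1.98-fold and Gja1 1.59-fold higher with dorsomorphin (adjusted p = 0.00479 for each, the smallest in that table). Gjb6 had 60.9 FPKM with dorsomorphin and 47.0 FPKM with cyclopamine and did not pass (adjusted p = 0.136 in the authors' deposited table). The connexin sum was 569 FPKM with dorsomorphin and 352 FPKM with cyclopamine, or 0.115% and 0.0656% of the FPKM of all loci. Gjb2 held 46.4% of it with dorsomorphin and 38.0% with cyclopamine, and Gjb5 held 2.15% and 3.90%.

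Pkp2 had 7.29 FPKM with dorsomorphin and 4.29 FPKM with cyclopamine, 1.70-fold higher in the authors' deposited table (adjusted p = 0.0227). The other desmosome genes were not called, including the upper-layer cadherins: Dsg1a had 22.1 FPKM with dorsomorphin and 24.2 FPKM with cyclopamine, Dsg1b 150.4 and 156 FPKM, and Dsc1 117 and 109.8 FPKM. Dsg3 had 253 FPKM with dorsomorphin and 241 FPKM with cyclopamine, so Dsg3 led the desmogleins in both with 57.5% and 55.7%. No tight junction gene (0 of 7) or cadherin (0 of 4) was called. Only 1.26% of all tested loci were called higher and 1.31% lower, so 0 calls among so few genes show no contrast. Cldn1 had 82.3 FPKM with dorsomorphin and 88.8 FPKM with cyclopamine, and Cldn4 had 11.3 and 13.5 FPKM. Cdh1 had 185 FPKM with dorsomorphin and 170.2 FPKM with cyclopamine, and Cdh3 had 67.3 and 62.2 FPKM. Cd34 had 6.87 FPKM with dorsomorphin and 11.7 FPKM with cyclopamine and did not pass. Snai2 had 309 FPKM with dorsomorphin and 189 FPKM with cyclopamine, 1.63-fold higher in the authors' deposited table (adjusted p = 0.00479).

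**Figure D5:**
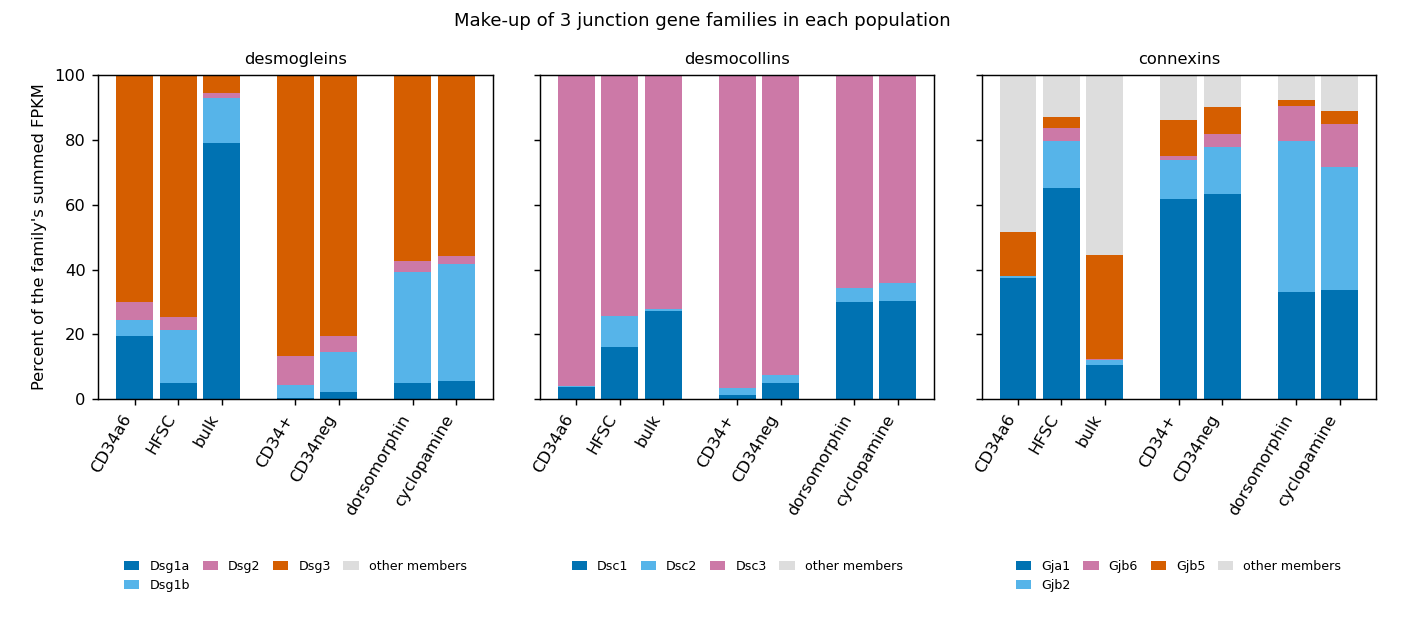
Percent of the summed FPKM of the desmogleins, desmocollins and connexins held by each member in each population, as stacked bars starting at 0, with members not shown singly in grey. Dsg1a holds 79.1% of the desmogleins in bulk cells, Dsc3 is the largest desmocollin in every bar, and the largest connexin is Gja1 in CD34a6 and HFSC cells and in both sorted fractions, Gjb5 in bulk cells and Gjb2 with either inhibitor.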

How the data were processed

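RNA of 21 libraries was compared in 3 tables whose columns are those of Cuffdiff, per the file headers. For the 9 libraries of the CD34a6, HFSC and bulk table, the submitters' processing notes list Cufflinks 2.2.1 with Cuffdiff, StringTie 1.1.0, HISAT 0.1.6 and FastQC 0.11.3, although the labels name a TopHat2 alignment. For the other 12 they list DESeq2 1.8.1, featureCounts (Subread 1.4.2), TopHat2 2.0.13, cutadapt 1.5 and FastQC 0.11.2, and it is not settled whether DESeq2 or Cuffdiff made their p-values. The build is GRCm38. FPKM values were estimated by the authors for each population over its libraries, per the file headers. The log2 fold of each line is the authors' deposited ratio of its FPKM values on the log2 scale, turned here so that the first-named population is on top. The p-value and the adjusted p (q-value) of each line are the authors' deposited values, and the smallest p-value is 5e-05. The test statistic, a score deposited by the authors, was not used. Read depth was unknown, so no interval is given.

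Each FPKM was assigned by the population named on its line, HFSC levels from the lines that pair HFSC with bulk, and identical lines of a gene listed under several identifiers were counted once. Members were taken by symbol. Calls are the authors' at an adjusted p under 0.05, with no test made here. Medians use log2 folds with a pseudocount of 1 FPKM. Loci were compared with GENCODE vM21: 80 of 87 held 1 gene on their strand and 7 several, and 51 had the annotated ends. Reads shared by copies were judged from shared 50-base stretches. The adjustment step was tested on simulated data, but the step that turns each line to its first-named population was not. Starts count from 1. The rule for named genes took every desmosome gene and the other members at 5 FPKM or more (38 in all), called members below that, and partner genes called in at least 3 of the 5 comparisons. Some genes it selects are not reported here, though they remain in the counts and sums. Dsg1c, Dsg4, Cdh5, Ttr, Acin1, marker genes and neighbours named otherwise were chosen after their values were seen. The members and all lists were chosen with earlier results of these data known. Python 3.11.15, pandas 2.3.3, numpy 2.4.6, scipy 1.17.1 and matplotlib 3.10.9 were used.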

Additional observations from a re-analysis of the deposited data

How the results depend on the processing

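No paired analysis was possible because the tables hold no value per library, and for the same reason no library could be left out. Asking for a fold of at least 2 as well left 13 of 20 junction genes higher in HFSC than in CD34a6 cells, and 0 of 3 higher with dorsomorphin than with cyclopamine. The other alternatives for counts (an adjusted p under 0.01, at least 1 FPKM in the higher population, loci of a single gene, adjustment within a pair, and the median of all loci taken out) kept every other count within 1.5 times. The median log2 fold in CD34a6 against bulk was -1.36 with a pseudocount of 0.1 FPKM, -1.45 with 0.01, -1.19 over loci of at least 1 FPKM and 0 over all members, tested or not. In HFSC against bulk it was -0.93 with either smaller pseudocount, -0.69 over loci of at least 1 FPKM, -0.0081 over all members and -0.51 after centring. In HFSC against CD34a6 it was 0.29 with either smaller pseudocount, 0.57, 0 and 0.35 in that order. In CD34+ against CD34neg it was 0.11 with a pseudocount of 0.01, 0 over all members and 0.17 after centring, and in dorsomorphin against cyclopamine 0 over all members and 0.092 after centring. Over all members it is near 0 because untested genes lie at or near 0 FPKM in both populations. Without loci of several genes Dsg2 leaves the family and Dsg3 held 73.9% of the desmogleins in CD34a6 cells, 77.5% in HFSC cells, 95.0% in CD34+ cells, 84.7% in CD34neg cells, 59.4% with dorsomorphin and 57.2% with cyclopamine, and Dsg1a 80.1% in bulk cells. Cldn1 then held 65.7%, 68.2%, 67.6%, 68.1% and 72.5% of the claudins in CD34a6, CD34+, CD34neg, dorsomorphin and cyclopamine cells, and Gja1 62.0% and 63.6% of the connexins in CD34+ and CD34neg cells. Of 100 called folds with values above 0 in both populations, 100 kept their sign with a pseudocount of 1 FPKM and after centring, but neither alternative could turn one. A pseudocount added to both levels never turns a sign, and the medians taken out (-0.11 to 0.00) were smaller than every called fold. With the same FPKM total in each population, an alternative added after seeing the data, 99 kept their sign. The exception was Dsc3 in CD34a6 against bulk, with a log2 fold of 0.18 in place of -0.99. Some folds that kept their sign came near 0, such as Cldn3 in HFSC against bulk at -0.0083. Unknown depth limits every low value.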

Other observations

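Proteases that cut or activate junction proteins were also measured. Of 6, 0 were called higher and 4 lower for CD34a6 against bulk, where 22.0% and 24.3% of all tested loci were. For HFSC against bulk, 1 was higher and 2 lower, near the 19.0% and 24.7% of all loci. For HFSC against CD34a6, 4 were higher and 0 lower, where 25.2% and 29.0% of all loci were. Klk7, a kallikrein that sheds the cornified layer by cutting corneodesmosin, had 26.4 FPKM in CD34a6 cells and 102 FPKM in HFSC cells, against 1248 FPKM in bulk cells. It was 47.2-fold and 12.2-fold lower than in bulk cells in the authors' deposited table (adjusted p = 0.000212 for each). In the sorted fractions Klk7 had 4.22 FPKM in CD34+ cells and 16.5 FPKM in CD34neg cells, 3.91-fold lower in the authors' deposited table (adjusted p = 0.00275). Klk6 had 0.869 FPKM in CD34a6 cells and 39.9 FPKM in HFSC cells, against 39.3 FPKM in bulk cells, and 97.6 FPKM with dorsomorphin and 59.8 FPKM with cyclopamine, where it was 1.63-fold higher with dorsomorphin in the authors' deposited table (adjusted p = 0.00479). The pannexin Panx1, a channel related to the connexins in shape, was named after its values were seen. It had 11.9 FPKM in CD34a6 cells and 48.6 FPKM in HFSC cells, against 33.4 FPKM in bulk cells, the order of Gjb2 and Gjb6. Unlike those genes, Panx1 was not called between HFSC and bulk cells. Panx2 and Panx3 were not tested.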
